A study of Rattus norvegicus with 11 samples.

Results

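In punches of the adult rat medial prefrontal cortex (mPFC), 166 of 15607 genes (1.06%) had no overlap between the sexes, meaning that the values of the 7 female libraries all lay above, or all lay below, those of the 4 male libraries on log2(normalized count + 1). The 7 females pooled the proestrus and diestrus groups, so a gene entered the set only if both cycle stages stood on the same side of every male. Of these genes, 51 were higher in females (0.327% of all genes) and 115 were lower (0.737%), so that 69.3% were lower in females. There are 330 ways to split 11 libraries into 7 and 4. Where sex had no bearing on the values, a share of 0.0030 of genes would on average still be parted in each direction. How far the set exceeds this level was not tested. The values that place a gene in the set are the ones compared between the sexes, so the sex differences below describe how these genes were chosen and support no further statement.

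The libraries came from Sprague-Dawley rats aged 2 to 3 months, of which 4 were males, 3 were proestrus females and 4 were diestrus females. Female cycles had been followed by daily vaginal smears. Diestrus females were collected early on the first day of that stage, and proestrus females early in the afternoon. Males were collected on the same days, and no group received a drug or carried an altered gene. Animals were housed in pairs, with the sexes in separate rooms. Neither the room nor the smears can thus be told apart from sex. Whether any libraries came from cage mates was not stated. Each library was made without strand information from poly(A) RNA of frozen punches that took in the infralimbic, prelimbic and cingulate areas. The females held 16.7 to 24.6 M reads on genes and the males 15.9 to 23.3 M. An exact two-sided permutation test over 330 splits (smallest possible p 0.0030) found no difference in depth (p = 0.936, adjusted over both measures 0.936) or in the share of reads in the 20 most abundant genes (13.1% ± 1.03 in females and 12.4% ± 0.681 in males, SD, p = 0.30, adjusted 0.60).

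Proestrus is the stage of the rat cycle in which estradiol peaks and progesterone rises before ovulation, and diestrus is a stage of lower estradiol. Males have no such cycle, but their brain is exposed to testicular hormones in development and in adult life. A sex difference that holds at both stages is therefore a different quantity from one that appears at a single stage. In punches of whole tissue, fewer cells of a type and less RNA per cell cannot be told apart.

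The genes were counted over the range of abundance, which was divided by the mean normalized count over the 11 libraries. Below 50 counts, 46 of 3876 genes (1.19%) showed no overlap, with 23 higher and 23 lower in females (0.593% each). Between 50 and 500 counts there were 78 of 5663 (1.38%), of which 16 were higher (0.283%) and 62 lower (1.09%). Above 500 counts there were 42 of 6068 (0.692%), with 12 higher (0.198%) and 30 lower (0.494%). With all 11 libraries the sides of the set were thus even below 50 counts, and most of its genes above 50 counts were lower in females. The counts and the balance moved with the libraries and the scaling. Under quantile normalization the strata held 29, 68 and 53 genes from low to high, so that the lowest no longer held more than the highest, and without male replicate 3 the highest held 104. Below 50 counts it was 41 higher and 71 lower without male replicate 2, 54 and 44 without replicate 4, 47 and 33 without replicate 5, and 7 and 15 without scaling for depth. Above 500 counts it was 33 and 35 without male replicate 2.

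**Figure D1:**
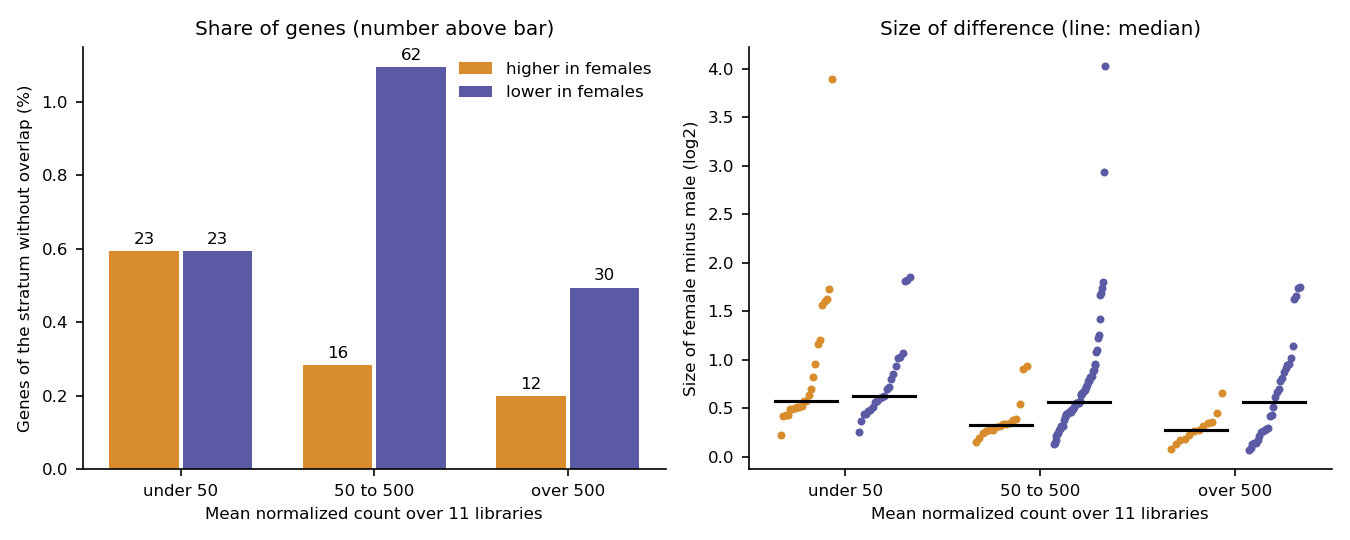
Genes without overlap between 7 female and 4 male libraries, by abundance stratum (mean normalized count) and direction, and the size of their sex difference on the log2 scale (1 point a gene, line at the median). In the 3 strata, 23, 16 and 12 genes were higher in females and 23, 62 and 30 were lower.

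The median absolute log2 difference of the set was 0.62, 0.54 and 0.35 from the lowest stratum to the highest, and over all genes it also fell, from 0.22 to 0.083 and 0.043. The median absolute difference over the 166 genes was 0.54 on the log2 scale, against 0.077 over all genes, and this follows in part from the way the genes were chosen. Among the genes higher in females the median was 0.58 below 50 counts, 0.33 between 50 and 500 and 0.27 above 500, and the 7 genes of this side with a difference over 1 all had a mean below 50. Among the genes lower in females the medians were 0.63, 0.56 and 0.56, and 23 genes exceeded 1, with 6, 11 and 6 in the strata from low to high. Differences under 0.5 were found in 75 of the 166 genes. Fold changes on this scale are compressed for genes with few counts.

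Separation was often narrow. The gap between the nearest female and the nearest male had a median of 0.0723 on the log2 scale, and 63 genes had a gap of at least 0.1, of which 13 were higher and 50 lower in females. The female libraries varied within their group about as much for these genes as for the whole table (median SD 0.22 against 0.22 on the log2 scale), and the male libraries varied less (0.15 against 0.19). Below 50 counts both sexes varied less in the set, at 0.28 against 0.48 in females and 0.24 against 0.42 in males. For a given difference between the sexes the rule favours genes with a small spread within each sex, so these values describe the choice. At the edge of the set, the narrowest gene above 500 counts had females from 1812 to 1931 normalized counts and males from 1722 to 1810, whereas the nearest gene outside it had females from 961 to 1227 and males from 1225 to 1238. Between 50 and 500 counts the corresponding ranges were 236 to 292 in females and 292 to 317 in males inside, and 149 to 198 and 129 to 149 outside. Below 50 counts they were 32.7 to 43.0 and 43.1 to 67.7 inside, and 9.98 to 16.7 and 16.6 to 24.2 outside.

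Reads were few for the genes of low abundance. The 46 genes below 50 counts had a median of 19 reads per library, which carries a counting error of 22.9%, against 146 reads (8.28%) and 1280 reads (2.80%) in the higher strata. In 9 of them the mean was below 10 counts, and in 20 the sexes were parted by less than 1 normalized count. In 3 genes at least 1 library held 0 reads. No gene of the set was at 0 in all females or in all males.

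Symbols were used for 1237 of the 15607 identifiers, and 11 of these genes had no overlap (0.889%), 1 higher and 10 lower in females. The other 155 genes of the set are given by counts and ranges, and by identifier in 4 cases. Of 180 symbols in 16 lists of cell type, hormone, activity and housekeeping genes, 19 were used, from 12 lists. Egr2 and Alas2 were the 2 without overlap, and Alas2 was the 1 that passed the test. No symbol of the X-linked or Y-linked lists was paired, so the labelled sex was not checked against such genes and the chromosomes of the set were not analysed here. Markers of neurons (Cux2, Gad1, Sst), astrocytes (Gja1, S100b), oligodendrocytes (Mog) and microglia (Aif1, Tmem119) were all detected in every library, as were the striatal genes Adora2a and Adcy5.

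Gpr37, a receptor found in oligodendrocytes, the cells that wrap axons in myelin, was the gene with a symbol that was higher in females. It ranged from 1049 to 1158 normalized counts in females with a median of 1069, against 1033, 941, 984 and 869 in male replicates 2 to 5. Every female library was above every male library, and the difference of 0.18 ± 0.06 (SE) on the log2 scale did not pass the threshold (limma, adjusted p = 0.684, n = 7 and 4). The myelin gene Mog overlapped between the sexes, at 1000 ± 222 (SD) in females and 762 ± 127 in males (log2 0.38, adjusted p = 0.913), and Pdgfra, a marker of oligodendrocyte precursors, had a log2 difference of -0.14.

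Adamts1, Col18a1, Nid2, Ccdc80 and Megf6 were lower in females and are described next, with no count of matrix genes among all symbols behind them. Adamts1, a secreted protease that cuts proteoglycans, had 68.8 to 113 normalized counts in females (median 102) and 166, 126, 235 and 239 in males. Even the lowest male was above every female, and the log2 difference was -0.94 ± 0.19 (limma, adjusted p = 0.0993). Col18a1, which encodes a collagen of basement membranes, had 287 to 425 in females (median 333) and 492.6, 530, 433 and 460 in males. The groups did not overlap, and the difference was -0.48 ± 0.11 (adjusted p = 0.194).

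Nid2, a linker protein of basement membranes, ranged from 87.2 to 136 normalized counts in females with a median of 103, and was 137, 136, 138 and 208 in males. Male replicates 2, 3 and 4 stood just above the highest female, so the separation was thin despite a log2 difference of -0.51 ± 0.15 (limma, adjusted p = 0.543). Ccdc80, a secreted protein that binds the matrix, had 159 to 223 in females (median 203) and 235, 262, 261 and 310 in males, a difference of -0.46 ± 0.11 (adjusted p = 0.309). Megf6, a protein with repeated EGF-like domains, had 27.4 to 39.9 in females (median 38.2) and 56.3, 44.0, 48.5 and 71.6 in males, a difference of -0.62 ± 0.17 (adjusted p = 0.470). None of these 5 genes passed the threshold with limma, whereas Adamts1, Col18a1 and Ccdc80 passed with DESeq2 and under no other setting tried, and all remained separated under TMM scaling and under quantile normalization. The mural cell gene Myh11, which overlapped, was 960 ± 136 in females and 1300 ± 222 in males (adjusted p = 0.543), and Col6a1, the 1 gene with a symbol of the 20 on the collagen and meningeal list, also overlapped, at 1260 ± 301 and 1298 ± 299. Whether the amount of vessel or meningeal tissue in the punches moved with these genes was not tested.

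Egr2, an immediate early transcription factor induced by neuronal activity, was the most abundant of the lower genes with a symbol. It ranged from 442 to 1110 normalized counts in females with a median of 676, and was 1365, 1246, 1615 and 1451 in males. Males were all above the highest female, while the females had the wider spread, and the difference of -1.02 ± 0.23 did not pass (limma, adjusted p = 0.177). Pim1, a serine/threonine kinase gene induced by cytokine signals, had 44.7 to 75.4 in females (median 55.7) and 92.7, 80.0, 116 and 101 in males, with a difference of -0.78 ± 0.15 (adjusted p = 0.0965). Both Egr2 and Pim1 passed with DESeq2 alone among the settings tried. Outside the naming rule, and chosen after their values were seen, Eif4ebp2 and Btg3 were also lower in females, by log2 differences of -0.21 and -0.13 (adjusted p = 0.684 and 1.0). Eif4ebp2 is a repressor of cap-dependent translation.

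**Figure D2:**
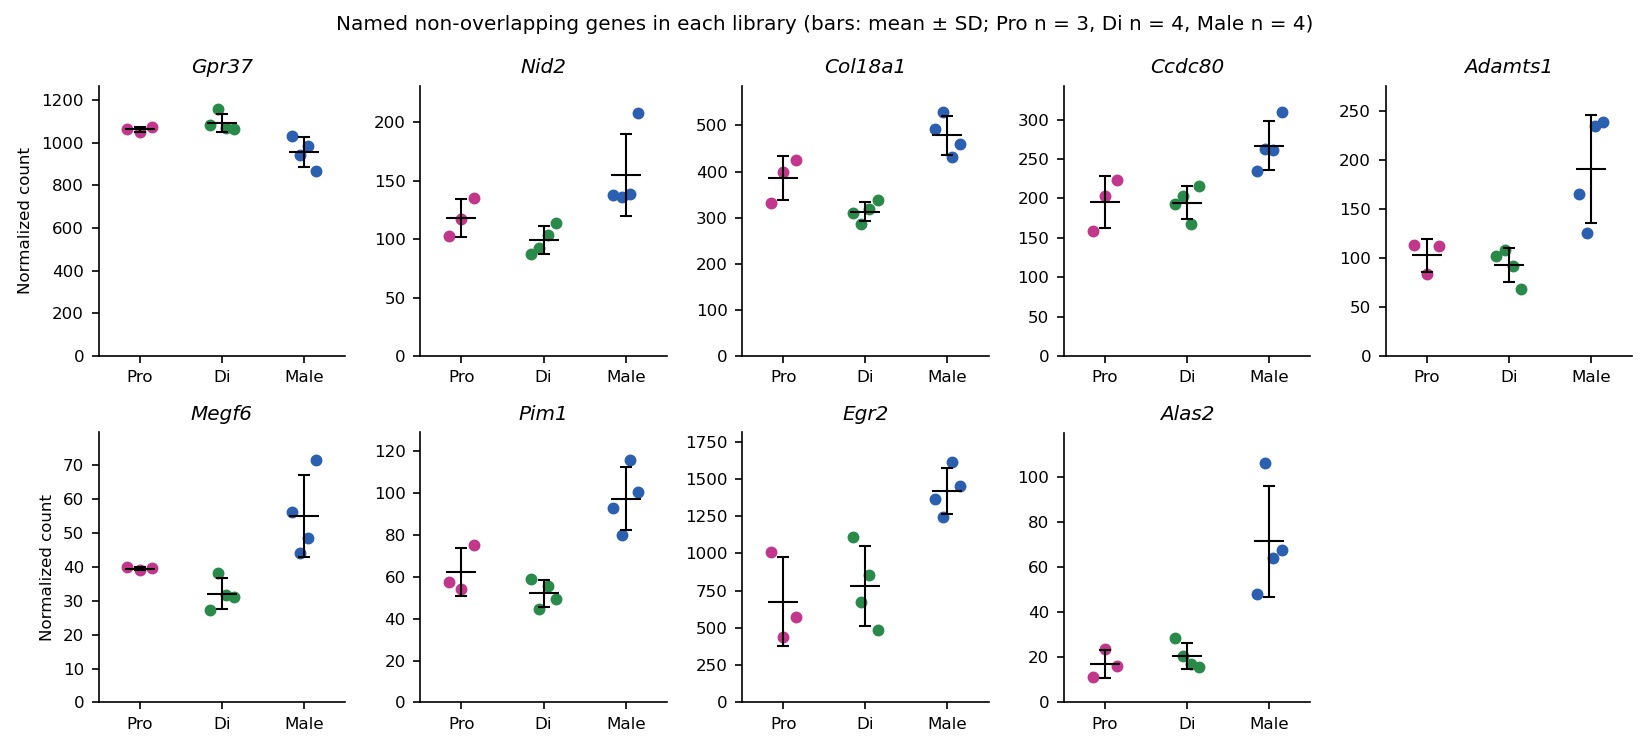
Normalized counts of the named genes without overlap in each library (11 points a gene, proestrus, diestrus and male groups, with bars for the mean ± SD). In every panel the 7 female points lie on one side of the 4 male points, above them for Gpr37 and below them for the other genes with a symbol.

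Across all 15607 genes, limma called 21 at a false discovery rate of 0.05 (0.135%), 2 higher (0.0128%) and 19 lower in females (0.122%), and each of them belonged to the 166. They were thus 12.7% of the set, with 2, 8 and 11 in the strata from low to high abundance. At an unadjusted p below 0.05 there were 754 genes (4.83%), 156 of them in the set. With edgeR 22 of 23 called genes (0.147% of all) belonged to the set, and with DESeq2 63 of 77 (0.513% of the 15001 genes to which it gave an adjusted p). One of the 21 had a symbol, Alas2, which encodes the erythroid form of the first enzyme of heme synthesis. Among the rest, ENSRNOG00000037911 had 38.7 to 103 normalized counts in females (median 59.4) and 4.14, 2.00, 2.36 and 3.87 in males. It was the widest separation of the set, with a gap of 2.95 and a difference of 3.90 ± 0.27 (adjusted p = 2.26e-05), and was named here after its values were seen, since its mean was below 50. ENSRNOG00000006186 had 1110 to 1612 in females (median 1355) and 844, 717, 1015 and 879 in males, a rise of 0.66 ± 0.11 (limma, adjusted p = 0.0385). That call was lost under quantile normalization (adjusted p = 0.0671) and with replicate number as a block in the fit (0.0967). It was also lost without any 1 of 8 libraries (diestrus 4 or 5, proestrus 1, 3 or 5, male 2, 3 or 5), with adjusted p up to 0.203.

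ENSRNOG00000049424 had 840 to 1627 normalized counts in females (median 1229) and 2444, 5510, 3830 and 4725 in males. The males thus differed among themselves by more than the females did, and the difference was -1.75 ± 0.21 (limma, adjusted p = 0.00875). ENSRNOG00000031230 had 14.1 to 44.1 in females (median 28.5) and 62.1, 137, 85.1 and 110 in males, a difference of -1.74 ± 0.27 (limma, adjusted p = 0.0247). The call of the first was lost without male replicate 3 (adjusted p = 0.0530) or 5 (0.0672). That of the second was lost with replicate number as a block in the fit (0.156). It was also lost without diestrus 4, proestrus 1 or 5, or male 3, 4 or 5, with adjusted p up to 0.183. The single largest difference of the set, -4.03, did not pass (adjusted p = 0.315). It belonged to a gene with 312 and 278 counts in proestrus replicates 1 and 3, 5.68 to 10.9 in the other 5 females and 338 to 611 in males, so that 2 of the 3 proestrus females were near the males and the third was with the diestrus females.

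Alas2 was lower in every female than in any male, with a similar log2 spread within each sex (SD 0.42 in females and 0.47 in males). It ranged from 11.1 to 28.4 normalized counts in females with a median of 17.1, and was 48.0, 106, 63.8 and 67.7 in male replicates 2 to 5. Its difference was -1.85 ± 0.26 (limma, adjusted p = 0.0120), and adjusted p ranged up to 0.0968 when a library was left out. The gene did not pass the threshold without male replicate 3 (0.0538) or male replicate 5 (0.0968). Of the 7 blood cell markers listed, Alas2 alone had a paired symbol, and the part of blood in this difference was not tested.

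Of the other 18 genes lower in females past the threshold, 4 had a library-to-library pattern within the sexes close to that of Alas2. Their Pearson correlations with it over the 11 libraries, after each sex's mean was removed, were 0.84 to 0.93, a description without a test because the points share libraries and the genes were looked for after the values were seen. A correlation over 0.8 was found in 22.2% of these 18 genes, against 0.532% of all genes (83 genes). In males all 4 were highest in replicate 3, then 5, 4 and 2, as Alas2 was, an order shared by 7 of the 18 (38.9%) and by 2.86% of all genes. Among the 96 lower genes of the set that did not pass, 0 had a correlation over 0.8 and 4 shared the order. The 4 genes that passed and had a correlation over 0.8 had a summed level of 9886, 23820, 15714 and 18556 in male replicates 2 to 5. In females it was 3446 to 6932 (5182 ± 1221, SD). The remaining 14 of the 18 had correlations from -0.02 to 0.71.

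**Figure D3:**
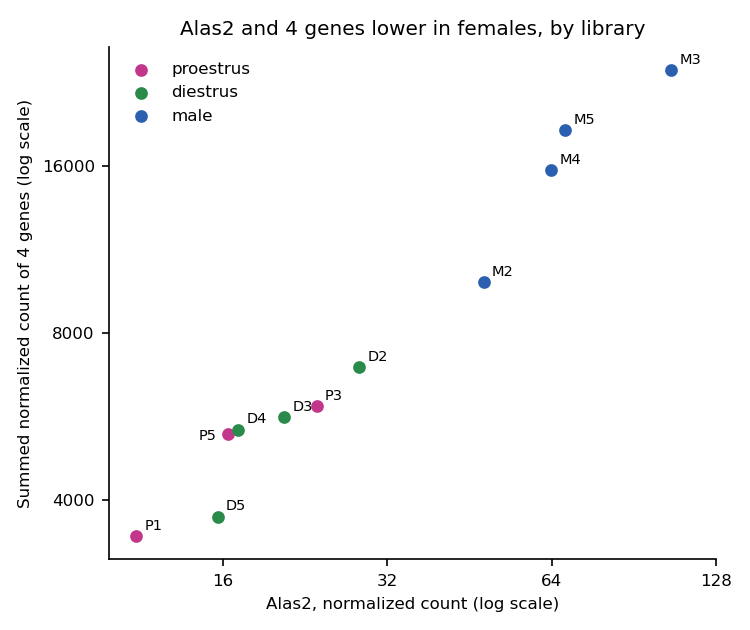
Summed normalized count of 4 genes, those with a correlation over 0.8 with Alas2 among the 18 other genes lower in females past the threshold, against Alas2 in each of 11 libraries, both axes on a log scale. The 4 males lie at 9886 to 23820 and the 7 females at 3446 to 6932, and male replicate 3 is highest on both axes.

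The cycle stages were compared within the set, whose choice used these same female values, so the counts are a description. No gene passed limma between proestrus and diestrus (0 of 166, against 2.53% of all genes, 2.45% higher and 0.0833% lower in proestrus), with 12 at an unadjusted p below 0.05 (7.23%, against 26.7% of all genes) and 1 past the threshold with edgeR (against 2.7% of all genes). The median absolute stage difference was 0.12, and it was 0.20 over all genes. In 13 of the 166 genes (7.83%) the stages did not overlap, against 26.6% of all genes. Proestrus was the higher stage in 74 genes (44.6%, against 48.3% of all genes), and it lay nearer to males than diestrus did in 83 of 166 (against 44.1% of all genes). For the genes higher in females, the median difference from males was 0.39 in proestrus and 0.43 in diestrus, and for those lower it was -0.60 and -0.65.

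**Figure D4:**
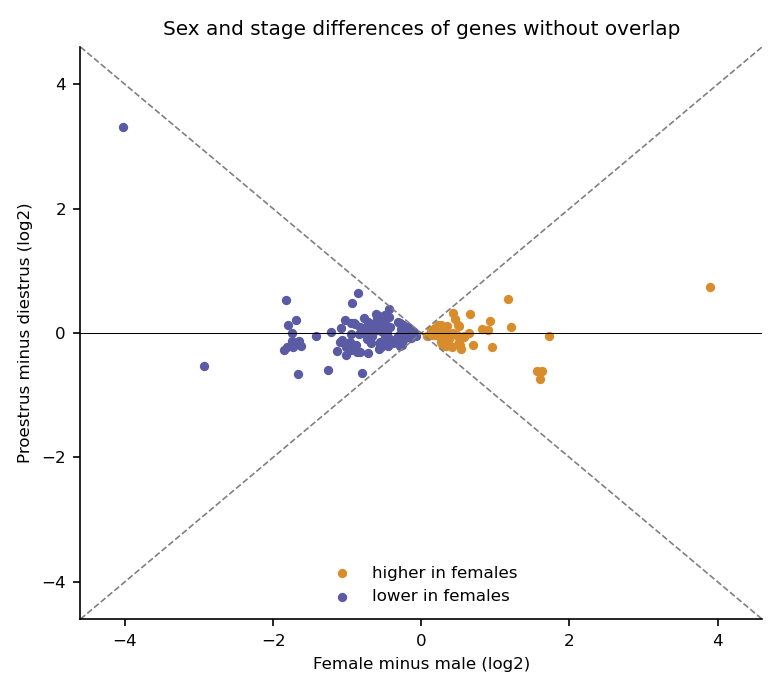
Difference between proestrus and diestrus against the difference between females and males for each gene of the set, both on the log2 scale, with dashed lines where the sizes are equal. In 0 of 166 genes was the stage difference the larger, against 74.8% of all genes, in a set chosen on the sex difference, and the median absolute values were 0.12 and 0.54.

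Individual libraries set the edges of the separation unequally. In the 115 genes lower in females, diestrus replicate 2 was the female nearest to the males in 38, followed by proestrus replicate 5 in 20 and proestrus replicate 3 in 17, whereas diestrus replicate 4 was nearest in 6. On the male side, replicate 2 was nearest in 37, replicate 4 in 33, replicate 3 in 27 and replicate 5 in 18. The farthest male was replicate 5 in 39 genes and replicate 3 in 36. In the 51 genes higher in females, proestrus replicate 3 was nearest in 10 and diestrus replicate 2 in 4, and male replicate 2 was nearest in 17.

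**Figure D5:**
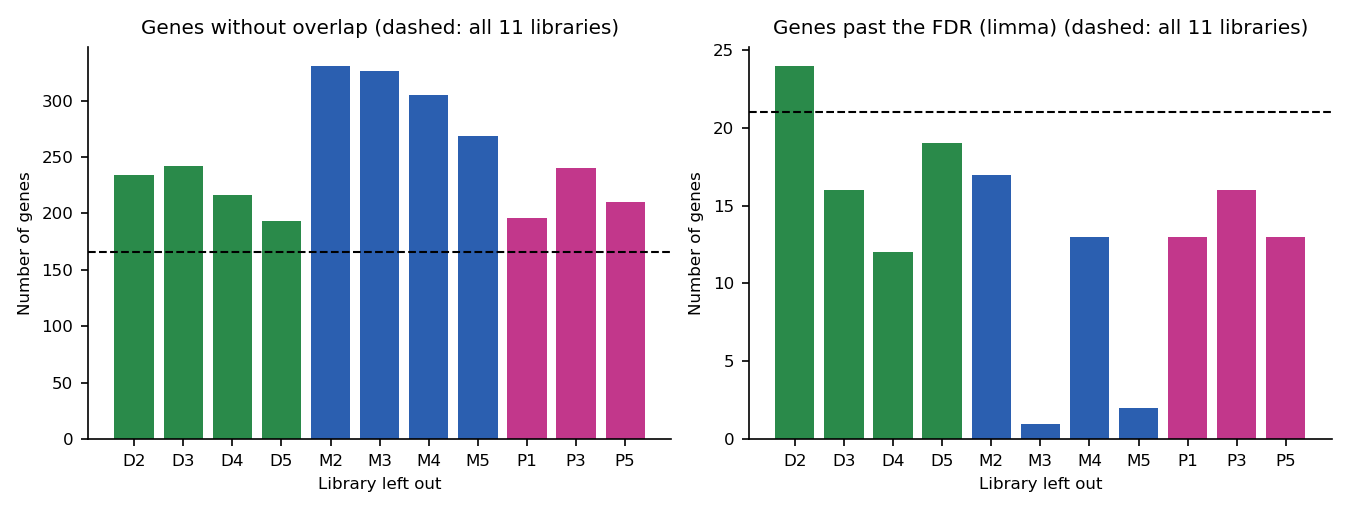
Number of genes without overlap (left) and number past the false discovery rate with limma (right) when each library was left out in turn. Leaving out a male gave 269 to 331 genes without overlap, and the number past the threshold was 1 without M3 and 2 without M5 (male replicates 3 and 5), against 21 with all libraries (dashed).

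The number past the threshold rested on these males. It was 1 if male replicate 3 was dropped, 2 without replicate 5, 13 without replicate 4 and 17 without replicate 2, and it lay between 12 and 24 when a female was left out. With replicate number as a block in the fit, 18 genes passed, 14 of them among the 21 of the main fit. Leaving out a library can only add genes to those without overlap, and it did so most for males, where the number was 269 to 331. Without any scaling for depth, 53 genes had no overlap, 7 higher and 46 lower in females, so that 86.8% were lower against 69.3% with the deposited scaling.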

How the data were processed

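RNA was measured in 11 mPFC libraries, with 1 more proestrus library set aside by the authors and not analysed here. Per the labels and the study's methods, the authors trimmed reads with Trimmomatic 0.32, aligned them to Rnor_5.0 with TopHat2 2.0.11 and Bowtie2 2.1.0 and counted genes with HTSeq 0.6.1p1. The values used are a deposited signal, gene counts that the authors divided by a size factor per library with DESeq2 1.4.5. Multiplying back gave whole reads for 100% of values within 0.01. A table normalized with edgeR was not used. Main fits used limma 3.58.1 on log2(value + 1) with Benjamini-Hochberg adjustment over 15607 genes (R 4.3.3), tested on simulated data, with edgeR 4.0.16 and DESeq2 1.42.0 on the whole reads as alternatives.

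Symbols were paired with identifiers for 1237 genes (7.93%), from a truncated supplementary table of the study, of which only the identifier and symbol columns were used. Its comparisons (fold changes and p-values) were not used. The result for 1 gene with a symbol is not reported here. The named genes were, per stratum and direction, the 5 with a symbol and the largest difference, any with a symbol past the threshold, any of the lists without overlap, and up to 2 identifiers per direction with a mean of at least 50. The members, lists and tests were chosen with earlier results of these data known. P-values measure the spread between these animals.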

Additional observations from a re-analysis of the deposited data

Results flagged for a closer look

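Of 45 sets of 4 or more libraries examined for a library far from the rest, 3 were flagged, and chance flags about 1 in 20. Nid2 in males stood out through replicate 5 (208 normalized counts against 136 to 138 in the others), whose gap to its neighbour was 0.961 of the range. Gpr37 in females stood out through diestrus replicate 3 (1158, gap 0.692 of the range). The share of reads in the 20 most abundant genes in males stood out through replicate 3 (13.4%, gap 0.889 of the range), a library that also held the highest Alas2 value.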

How the results depend on the processing

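With limma the 21 genes past the threshold became 18 to 23 under the pseudocounts, TMM, quantile normalization, a mean of at least 50, the mean of both stages and edgeR, and 77 with DESeq2 (11 higher, 66 lower). Leaving out each library gave 1 to 24. It was 1 without male replicate 3, 2 without male 5, 13 without male 4, 12 without diestrus 4, and 13 without proestrus 1 or 5. The 166 genes without overlap became 167 under TMM and 150 under quantile normalization (108 in both and in the main set), 53 without scaling for depth, 63 with a gap of at least 0.1, and 193 to 331 with a library left out, where males 2, 3, 4 and 5 gave 331, 326, 305 and 269. Below 50 counts, 46 became 29 (quantile), 22 (no scaling), 21 (gap) and 57 to 112, with 112, 87, 98 and 80 without males 2 to 5. From 50 to 500, 78 became 24, 25 and 89 to 151 under no scaling, the gap and a library left out (151, 135 and 130 without males 2, 3 and 4), and above 500, 42 became 7, 17 and 47 to 104 (68, 104, 77 and 81 without males 2 to 5 and 72 without diestrus 2). For proestrus against diestrus, 0 became 1 with edgeR and 0 to 2 with a library left out (2 without diestrus 5, 1 without male 3 or proestrus 5), while 12 of the 166 had an unadjusted p below 0.05. Same-numbered libraries of different groups had deviations correlated at 0.0075 to 0.31, with 3 of 8 pairs over 0.1, all between diestrus and males (0.31, 0.17 and 0.21 for numbers 3, 4 and 5, and 0.049 for 2). Libraries correlated best with their own number in 9 of 16 cases. Not every pair exceeded 0.1, so the numbers were not taken to pair the samples, although males were collected on the same days as females. A replicate block gave 18 genes in females against males, 14 of them among the 21, did not call ENSRNOG00000006186 (adjusted p = 0.0967) or ENSRNOG00000031230 (0.156), and gave 1 gene of the set between stages (an alternative chosen after seeing the data). Of 257 values of the 13 named genes under alternatives, 231 kept their call and none reversed; 21 lost the threshold, and 5 passed it with DESeq2 alone (Adamts1, Pim1, Col18a1, Ccdc80, Egr2). Depth limits the genes below 50 counts most.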
